A study of Mus musculus with 9 samples.

Results

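The 10 genes described here encode tumour necrosis factor (TNF), 1 of its receptors, and proteins that the transcription factor NF-kappa-B switches on, most of which then restrain or extend the same signal. They were chosen by symbol (Tnf, Tnfrsf1b, Birc3, Nfkbia, Nfkbie, Tnfaip3, Relb, Nfkb2, Icam1 and Ptgs2), and all 10 were found among the 54532 genes of the deposited table. Levels were read in 9 RNA sequencing libraries of skin biopsies from wild-type mice, 3 in each of 3 groups. The groups were healthy control skin, skin of mice given bleomycin (a DNA-damaging drug that scars skin and lung and so serves as a mouse model of systemic sclerosis), and skin of mice given bleomycin with nitrate applied to the skin, called nitrate below. The sources used here do not give strain, age, sex, doses, times or how many animals the libraries came from, so that a p-value speaks of the spread of these libraries alone, which may be technical.

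TNF is an inflammatory cytokine made by macrophages, mast cells, T cells and keratinocytes. Its receptors release NF-kappa-B, a family of paired transcription factors, from inhibitor proteins (the I-kappa-B proteins) that hold it in the cytoplasm. Among the genes that NF-kappa-B then switches on are those of its own inhibitors, so that the signal shuts itself off, and those of adhesion molecules and enzymes that carry inflammation forward.

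Bleomycin raised 1 of the 10 genes, Ptgs2, by limma's test over all 14645 genes with enough signal (log2 difference of 2.25 ± 0.35, standard error, adjusted p = 0.00975). Without the bleomycin group Ptgs2 would not have had enough signal to be tested. The other 9 had positive log2 differences of 0.07 to 1.12, and did not pass. With nitrate all 10 had lower values than with bleomycin alone, with log2 differences of -0.54 to -1.81, and none passed. In 7 of the 10 genes the nitrate libraries overlapped the range of control. The exceptions were Ptgs2, whose nitrate libraries all lay above control, and Nfkbia and Birc3, whose nitrate libraries all lay below it. Of all tested genes, 17.3% had every nitrate library above control and 17.5% had every one below it. Levels are in FPKM, fragments scaled to gene length and library size, so that genes can be compared per length. Log2 differences are differences of log2(FPKM + 1), which understates the change of genes with little signal, here Tnf and Ptgs2. Adjusted p is the Benjamini-Hochberg value over the 14645 genes, and a gene passed under 0.05.

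The libraries held 15804050 to 18352592 reads as recovered from the table, and all 9 skin markers checked (among them Krt14, Krt10, Flg and Col1a1) were above 1 FPKM often enough to be tested. Libraries of 1 group stood apart in tissue content, with a mean log2(FPKM + 1) over 24 anagen hair follicle genes of 0.27 to 6.06 in control, 1.15 to 6.95 in bleomycin and 5.80 to 8.55 in nitrate. Control 1 and bleomycin 1 were the lowest. Leaving both out ended the call of Ptgs2 (log2 difference of 1.85, adjusted p = 0.0566). With the hair follicle list as a covariate Ptgs2 had 2.34 (adjusted p = 0.0120).

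**Figure D1:**
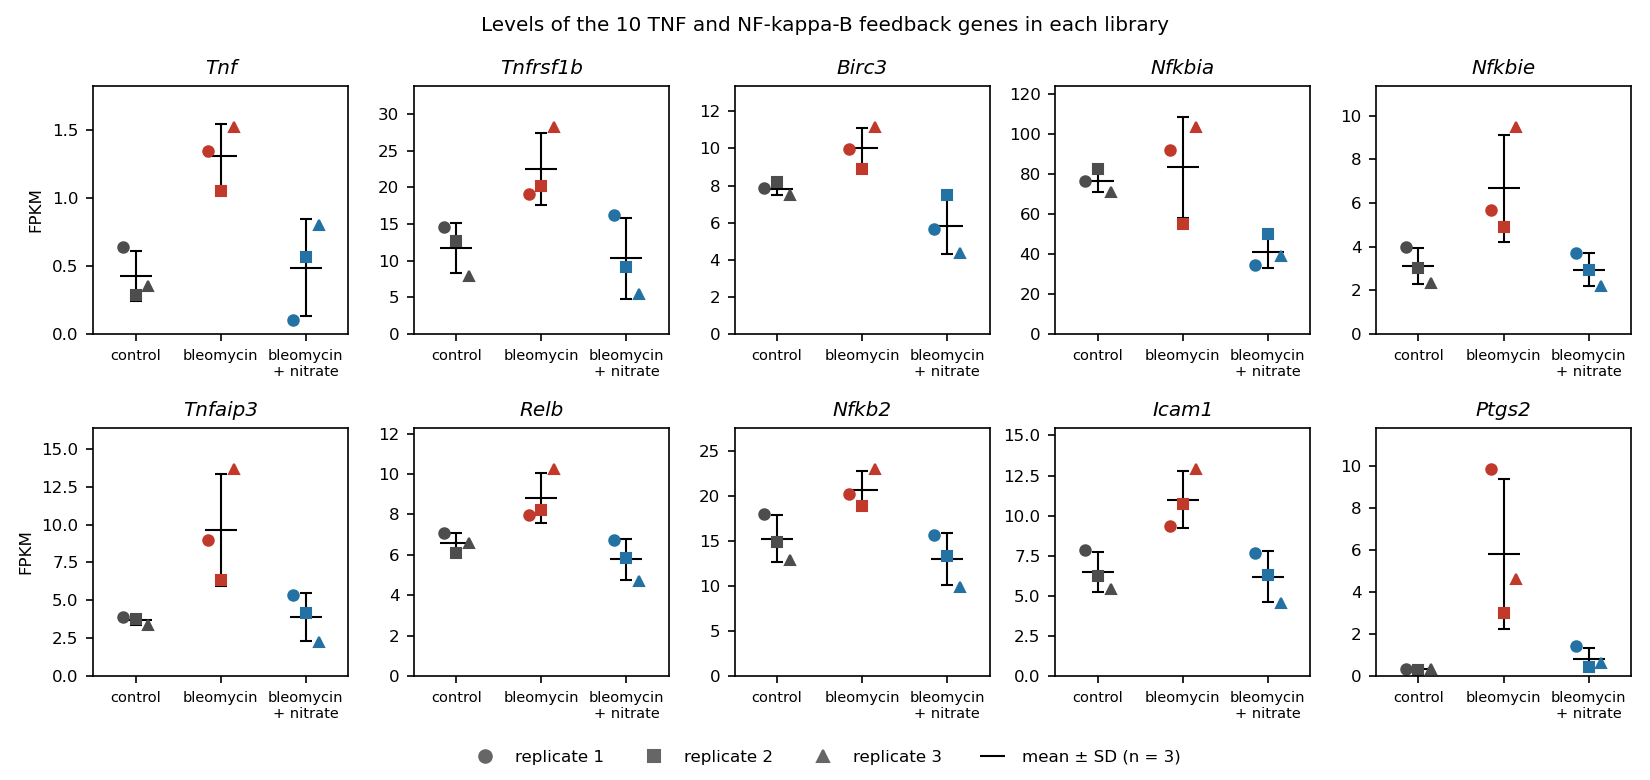
FPKM of each of the 10 genes (vertical axes, from 0) in the 3 libraries of control, bleomycin and bleomycin plus nitrate, with the mean and SD of each group (n = 3). The bleomycin libraries lie above the other groups for 9 genes, and the nitrate libraries lie below bleomycin for all 10, with Nfkbia in nitrate (34.5 to 50.3) also below control (70.9 to 82.7).

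The 10 genes spanned a wide range of levels. Nfkbia was highest in every group, with 76.8 ± 5.88 FPKM (SD, n = 3 libraries) in control, 83.4 ± 25.4 under bleomycin and 41.2 ± 8.18 with nitrate, and in no group did its values overlap those of the next gene. In control the order continued with Nfkb2, Tnfrsf1b, Birc3, Relb, Icam1, Tnfaip3, Nfkbie, Tnf and Ptgs2. Of the neighbours in that order, Nfkb2 and Tnfrsf1b, Tnfrsf1b and Birc3, Relb and Icam1, Tnfaip3 and Nfkbie, and Tnf and Ptgs2 overlapped in their values. Under bleomycin Tnfrsf1b stood second and Tnf last, and Ptgs2 had passed Tnf without overlap. With nitrate the order from the second place was Nfkb2, Tnfrsf1b, Icam1, Birc3, Relb, Tnfaip3, Nfkbie, Ptgs2 and Tnf, and the only gap without overlap below Nfkbia was that between Nfkbie and Ptgs2.

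The ligand, Tnf (ENSMUSG00000024401, chromosome 17, 35199381 to 35202007, minus strand, mm10), was near the limit of detection. Its level was 0.638, 0.290 and 0.351 FPKM in control 1, 2 and 3, from 16, 8 and 10 reads. It was 1.35, 1.06 and 1.52 FPKM in bleomycin 1, 2 and 3, from 36, 30 and 44 reads, and every bleomycin library was above every control. With nitrate it was 0.0997, 0.566 and 0.802 FPKM in libraries 1, 2 and 3, from 3, 17 and 25 reads, and all 3 values were below bleomycin. Nitrate 1 was below all controls, nitrate 2 among them and nitrate 3 above them. The mean was 3.07 times control under bleomycin (log2 difference of 0.70 ± 0.22, adjusted p = 0.0870), which passed when only both groups compared were fitted (adjusted p = 0.0436, range 0.0436 to 0.250 in 16 alternatives). Against bleomycin the nitrate group had -0.66 ± 0.22 (adjusted p = 0.180). Genes were tested if 3 or more of the 9 libraries reached 1 FPKM. Tnf did so only in the 3 bleomycin libraries, so the filter fixed the direction of both differences.

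Tnfrsf1b (ENSMUSG00000028599, chromosome 4, 145213463 to 145246870, minus strand) encodes TNF receptor 2, which is found mainly on leukocytes and endothelium. It stood at 14.6, 12.7 and 7.92 FPKM in control 1, 2 and 3 and at 19.1, 20.2 and 28.2 in bleomycin 1, 2 and 3. With nitrate it had 16.3, 9.16 and 5.48 FPKM in libraries 1, 2 and 3, so that nitrate 1 was above all controls and nitrate 3 below all of them. The groups of bleomycin and control did not overlap, nor did those of nitrate and bleomycin, but the spread within groups was wide (a coefficient of variation of 53.3% in nitrate). Log2 differences were 0.90 ± 0.36 for bleomycin against control (adjusted p = 0.150) and -1.15 ± 0.36 for nitrate against bleomycin (adjusted p = 0.162). Tnfrsf1a, which encodes the widely expressed TNF receptor 1, was higher per length, with 77.1 ± 4.15, 91.5 ± 4.08 and 67.99 ± 9.83 FPKM in control, bleomycin and nitrate, and its differences were smaller (0.24 ± 0.13, adjusted p = 0.264, and -0.43 ± 0.13, adjusted p = 0.155).

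Birc3 (ENSMUSG00000032000, chromosome 9, 7848699 to 7873186, minus strand) encodes cIAP2, a ubiquitin ligase of the TNF receptor complex that favours cell survival. Control libraries 1, 2 and 3 had 7.86, 8.17 and 7.50 FPKM, and bleomycin libraries 1, 2 and 3 had 9.98, 8.89 and 11.1. The nitrate libraries had 5.67, 7.48 and 4.39 FPKM and lay below those of both other groups, although nitrate 2 was only just under the lowest control. The log2 difference was 0.31 ± 0.17 for bleomycin against control (adjusted p = 0.268), -0.70 ± 0.17 for nitrate against bleomycin (adjusted p = 0.121) and -0.39 ± 0.17 for nitrate against control (adjusted p = 0.146). Leaving out nitrate 2 made the last of these pass (-0.56, adjusted p = 0.0316), over a range of 0.0316 to 0.568 in 21 alternatives. Birc2, the gene of the related cIAP1, had 7.52 ± 0.665, 6.83 ± 0.455 and 6.97 ± 0.352 FPKM in control, bleomycin and nitrate.

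Nfkbia (ENSMUSG00000021025, chromosome 12, 55489410 to 55492647, minus strand) encodes I-kappa-B-alpha, the inhibitor that NF-kappa-B resupplies fastest. It had 76.7, 82.7 and 70.9 FPKM in control 1, 2 and 3 and 91.9, 54.9 and 103 in bleomycin 1, 2 and 3. Nfkbia was the member whose bleomycin and control values overlapped, since bleomycin 2 was below every control while bleomycin 1 and 3 were above. With nitrate it had 34.5, 50.3 and 38.8 FPKM in libraries 1, 2 and 3, all below the other 6 libraries. The log2 difference was 0.07 ± 0.24 for bleomycin against control (adjusted p = 0.879), -0.97 ± 0.24 for nitrate against bleomycin (adjusted p = 0.126) and -0.90 ± 0.24 for nitrate against control (adjusted p = 0.0547). The last of these passed with quantile normalization (adjusted p = 0.0407), sample weights (adjusted p = 0.0319), voom on the recovered reads (adjusted p = 0.0461), without bleomycin 2 (adjusted p = 0.0310) and without nitrate 2 (adjusted p = 0.0308), with a range of 0.0308 to 0.335 in 21 alternatives.

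Nfkbie (ENSMUSG00000023947, chromosome 17, 45555703 to 45563169, plus strand) encodes I-kappa-B-epsilon, a slower inhibitor of the same family. Its level was far below that of Nfkbia, at 3.995, 3.03 and 2.34 FPKM in control 1, 2 and 3. Bleomycin libraries 1, 2 and 3 had 5.66, 4.89 and 9.46 FPKM, all above control. Nitrate libraries 1, 2 and 3 had 3.70, 2.94 and 2.21 FPKM, in the control range or just under it. The log2 difference was 0.87 ± 0.25 for bleomycin against control (adjusted p = 0.0688) and -0.93 ± 0.25 for nitrate against bleomycin (adjusted p = 0.136). The first passed with sample weights (adjusted p = 0.0424, range 0.0424 to 0.189 over 20 alternatives).

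Tnfaip3 (ENSMUSG00000019850, chromosome 10, 19000910 to 19015657, minus strand) encodes A20, an enzyme that edits ubiquitin chains and ends signalling from the TNF receptor. Of the 3 inhibitor genes among the 10, it had the largest estimates for bleomycin against control and for nitrate against bleomycin, a contrast between genes that was not tested. Control libraries 1, 2 and 3 had 3.93, 3.79 and 3.36 FPKM, a narrow range, and bleomycin libraries 1, 2 and 3 had 8.96, 6.31 and 13.6. The nitrate libraries had 5.37, 4.18 and 2.23 FPKM, with nitrate 1 and 2 above and nitrate 3 below all controls. The mean was 2.61 times control under bleomycin (log2 difference of 1.12 ± 0.30, adjusted p = 0.0539), and nitrate against bleomycin had -1.11 ± 0.30 (adjusted p = 0.136). The first passed when only both groups compared were in the fit (adjusted p = 0.0366), with sample weights (adjusted p = 0.0259), and without bleomycin 2 (adjusted p = 0.0451), nitrate 1 (adjusted p = 0.0498) or nitrate 3 (adjusted p = 0.0311), over a range of 0.0259 to 0.186 in 21 alternatives.

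The RefSeq promoters (build GRCm38.p6, the assembly that mm10 stands for) of 3 of these genes are shown because they carry the letters that NF-kappa-B is known to bind. The windows are the 250 bases before the gene's start, 5′ to 3′ on the gene's strand, and the 3 printed here lie outside the genes as the deposited table places them. Capitals mark matches, on either strand, to either of 2 motifs. The strict motif is 3 G, any 2 bases, 3 T and 2 C in a row, and the other is the textbook kappa-B consensus, which has the same length, is looser and overlaps it. The first is Nfkbia, chr12:55492648-55492897, minus strand, the second Nfkbie, chr17:45555450-45555699, plus strand, and the third Nfkb2, chr19:46304487-46304736, plus strand.
Nfkbia: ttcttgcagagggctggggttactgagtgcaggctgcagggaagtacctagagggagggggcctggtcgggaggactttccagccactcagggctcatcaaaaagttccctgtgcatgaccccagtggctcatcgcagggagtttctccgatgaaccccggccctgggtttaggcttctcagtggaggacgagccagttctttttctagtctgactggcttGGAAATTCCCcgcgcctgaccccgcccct
Nfkbie: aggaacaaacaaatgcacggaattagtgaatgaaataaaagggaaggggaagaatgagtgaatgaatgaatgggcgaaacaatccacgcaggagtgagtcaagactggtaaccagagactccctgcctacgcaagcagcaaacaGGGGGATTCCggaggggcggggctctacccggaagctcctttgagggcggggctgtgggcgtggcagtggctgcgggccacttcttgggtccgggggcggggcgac
Nfkb2: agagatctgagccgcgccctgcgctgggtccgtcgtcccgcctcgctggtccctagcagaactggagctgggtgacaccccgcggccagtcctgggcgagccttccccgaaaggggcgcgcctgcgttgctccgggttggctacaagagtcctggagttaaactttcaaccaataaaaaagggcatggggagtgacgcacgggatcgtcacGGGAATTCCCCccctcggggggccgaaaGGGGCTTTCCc
The match of Nfkbia reads GGGAATTTCC on the minus strand of the window, 29 to 20 bases before the start. Nfkb2 has GGGGCTTTCC 11 to 2 bases before its first start, beside further matches to the consensus from 39 bases before it. Nfkbie has no strict match but a consensus match, GGGGGATTCC, 106 to 97 bases before its start. Tnfaip3 has GGGGATTTCC on the minus strand 12 to 3 bases before the first of its RefSeq starts, a place that the deposited table counts as inside the gene. Of the 10 genes 9 had a window in the RefSeq table, 12 windows in all, and Relb had none. Of the 12 windows 5 (both of Tnfaip3, the later windows of Nfkb2, and that of Birc3) overlap their own gene in the deposited table, and all 12 are counted. The strict motif was found for 3 of the 9 genes and in 4 of the 12 windows, against 1.41% of 32851 windows of the same length over all genes. The consensus was found for 4 genes and in 6 windows, against 7.25%. These are matches of letters in a short window and not measured binding, and the genes were chosen as known targets, so that the counts are a description.

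Relb and Nfkb2 encode the NF-kappa-B pair that acts in the slower, non-canonical branch of the pathway, with Nfkb2 giving p100, a precursor that also acts as an inhibitor. Relb (ENSMUSG00000002983, chromosome 7, 19606217 to 19629438, minus strand) had 7.10, 6.09 and 6.59 FPKM in control 1, 2 and 3, and 7.99, 8.22 and 10.2 in bleomycin 1, 2 and 3. With nitrate it had 6.75, 5.86 and 4.71 FPKM, with nitrate 2 and 3 below all controls and nitrate 1 among them. Its log2 differences were 0.36 ± 0.14 for bleomycin against control (adjusted p = 0.150) and -0.54 ± 0.14 for nitrate against bleomycin (adjusted p = 0.136). Nfkb2 (ENSMUSG00000025225, chromosome 19, 46304737 to 46312090, plus strand) had 18.04, 14.9 and 12.9 FPKM in control 1, 2 and 3. Bleomycin libraries 1, 2 and 3 had 20.3, 18.8 and 22.9 FPKM, and nitrate libraries 1, 2 and 3 had 15.6, 13.4 and 9.87. Its lowest bleomycin library was just above its highest control. Its log2 differences were 0.42 ± 0.18 (adjusted p = 0.176) and -0.65 ± 0.18 (adjusted p = 0.139). Both genes thus had smaller differences between bleomycin and control than Tnfaip3 or Nfkbie, a contrast between genes that was not tested.

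Icam1 (ENSMUSG00000037405, chromosome 9, 21015985 to 21028817, plus strand) encodes ICAM-1, the endothelial and keratinocyte molecule that leukocyte integrins grip. It had 7.83, 6.21 and 5.44 FPKM in control 1, 2 and 3 and 9.34, 10.7 and 12.9 in bleomycin 1, 2 and 3, with no overlap. With nitrate it had 7.70, 6.32 and 4.56 FPKM in libraries 1, 2 and 3, of which nitrate 1 and 2 lay in the control range and nitrate 3 below it. The log2 differences were 0.68 ± 0.20 for bleomycin against control (adjusted p = 0.0702) and -0.75 ± 0.20 for nitrate against bleomycin (adjusted p = 0.136). The first passed when only both groups compared were fitted (adjusted p = 0.0466), with sample weights (adjusted p = 0.0388) and without nitrate 3 (adjusted p = 0.0423), over a range of 0.0388 to 0.202. Among 6 genes of its integrin partners and relatives, 5 were tested. Itgal and Itgb2, the chains of its main partner LFA-1, rose with bleomycin (1.22 ± 0.18, adjusted p = 0.00886, and 1.49 ± 0.34, adjusted p = 0.0324), as did Itgax (1.71 ± 0.28, adjusted p = 0.0116), while Icam2, an endothelial relative, fell (-0.53 ± 0.13, adjusted p = 0.0469).

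Ptgs2 (ENSMUSG00000032487, chromosome 1, 150100031 to 150108227, plus strand) encodes COX-2, the inducible enzyme that starts prostaglandin synthesis. It was barely expressed in control skin, at 0.314, 0.286 and 0.352 FPKM from 22, 22 and 28 reads. Under bleomycin it stood at 9.86, 3.0 and 4.63 FPKM in libraries 1, 2 and 3, from 736, 238 and 374 reads, so that bleomycin 1 was far above the others and all 3 were far above control. With nitrate it had 1.42, 0.453 and 0.631 FPKM in libraries 1, 2 and 3, from 119, 38 and 55 reads, between the other groups and without overlap with either. The bleomycin mean was 18.4 times control and the nitrate mean 2.63 times control. Ptgs2 reached 1 FPKM in 4 libraries, those of bleomycin and nitrate 1, so it met the filter only through the bleomycin group. The filter thus favoured a rise with bleomycin and a lower value with nitrate than with bleomycin. It rose with bleomycin (log2 difference of 2.25 ± 0.35, adjusted p = 0.00975), and the differences of nitrate from bleomycin (-1.81 ± 0.35, adjusted p = 0.0938) and from control (0.44 ± 0.35, adjusted p = 0.405) did not pass. The rise passed in 19 of the 20 alternatives that tested it, among them the fit with no filter, with the exception given above. In bulk skin, more cells that express a gene and more RNA per cell cannot be told apart, here or for any gene below.

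Of 16 other genes of prostaglandin synthesis, breakdown and reception 13 were tested, and 0 passed between bleomycin and control by limma (5 higher and 2 lower at an unadjusted p under 0.05). Ptges, the enzyme that works next to COX-2 to make prostaglandin E2, had 15.3 ± 3.62, 29.9 ± 9.02 and 10.49 ± 2.14 FPKM in control, bleomycin and nitrate (0.90 ± 0.26, adjusted p = 0.0720, and -1.40 ± 0.26, adjusted p = 0.0938). Ptgds, a prostaglandin D2 synthase, had 1.58 ± 0.57 for bleomycin against control (adjusted p = 0.124). Ptgs1, the constitutive COX-1, had 21.5 ± 3.03, 17.5 ± 1.122 and 12.02 ± 1.72. Against control, 3 of the 13 were lower with nitrate, namely Ptgs1 (-0.79 ± 0.14, adjusted p = 0.0214), Hpgd, which breaks prostaglandins down (-0.76 ± 0.16, adjusted p = 0.0296), and Ptger3, a receptor of prostaglandin E2 (-1.81 ± 0.31, adjusted p = 0.0192).

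**Figure D2:**
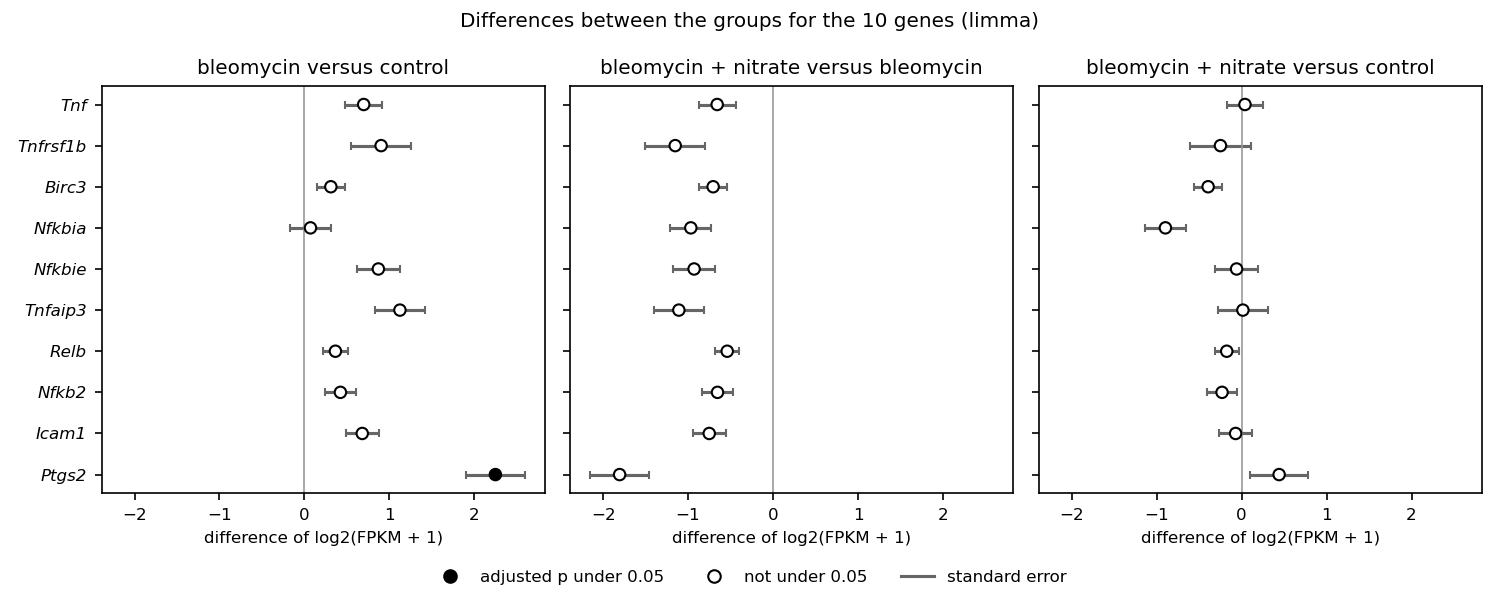
Difference of log2(FPKM + 1) with its standard error for the 10 genes in the 3 comparisons, from limma with 3 libraries a group. Ptgs2 in bleomycin against control (2.25) is the filled point that passed, all 10 estimates lie below 0 for nitrate against bleomycin, and Nfkbia (-0.90) and Birc3 (-0.39) lie farthest below 0 for nitrate against control.

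Bleomycin against control addresses the response of skin to the drug. Of the 10 genes 1 was called higher, where 4.74% of all tested genes were, and 0 lower, against 3.69%. At an unadjusted p under 0.05, 8 of the 10 were higher, against 14.0% of all genes, and for 9 of the 10 every bleomycin library lay above every control, against 18.4% of all genes. The median log2 difference of the 10 was 0.69, or 0.68 without Tnf, against 0.01 over all genes, and 0 of the 10 estimates were below 0, against 48.4%. Tnf, whose direction the filter fixed, and Ptgs2, which met the filter only through the bleomycin group, are part of these counts. The genes were chosen with earlier results of these data known, so these shares describe them and give no independent support.

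The comparison of nitrate with bleomycin asked what the topical treatment changed in skin exposed to the drug. By limma 0 of the 10 genes passed, where 0.00% of all genes did, and voom on the recovered reads also gave 0. At an unadjusted p under 0.05 by limma all 10 were lower, against 10.4% of all genes. By voom all 10 were lower too, but the share of all genes by voom is not given here, so that count has no background. For all 10 every nitrate library was below every bleomycin library, against 11.8% of all genes, and in no gene was it the other way round, against 9.40%. All 10 estimates were below 0, against 50.4%. The median log2 difference was -0.84, or -0.93 without Tnf, against -0.00290 over all genes. Both comparisons use the same 3 bleomycin libraries, so high values there push the differences in opposite directions. Here too the counts include Tnf, whose direction the filter fixed, and Ptgs2, which met the filter only through the bleomycin group. The choice of genes with earlier results known means that these shares also give no independent support.

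The comparison of nitrate with control asked how far skin given both treatments stood from healthy skin. By limma 0 of the 10 genes passed, against 3.63% of all genes called higher and 4.90% called lower. By voom 1 did (Nfkbia, lower), a count without background, since the share of all genes by voom is not given here. At an unadjusted p under 0.05 Nfkbia and Birc3 were lower, against 16.0% of all genes, and 0 were higher, against 15.4%. The libraries did not overlap for these 2 genes, both lower, against 17.5% of all genes, and for Ptgs2, higher, against 17.3%. Estimates were below 0 for 7 of the 10, against 48.1%. The median log2 difference of the 10 was -0.12, or -0.17 without Tnf, against 0.02 over all genes. For Tnf (0.04 ± 0.22), Tnfaip3 (0.02 ± 0.30), Nfkbie (-0.06 ± 0.25), Icam1 (-0.07 ± 0.20) and Tnfrsf1b (-0.25 ± 0.36) the standard error was larger than the estimate, and its sign changed under some alternatives. A p over the threshold does not show that these levels equal those of control.

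Libraries of 1 group differed in the same direction for most of the 10 genes. Control 1 held the highest control value of 7 genes and control 3 the lowest of 7. Bleomycin 3 held the highest bleomycin value of 9 genes, with Ptgs2 as the exception, and bleomycin 2 the lowest of 7. Nitrate 1 held the highest nitrate value of 7 genes and nitrate 3 the lowest of 7. The exceptions in nitrate 1 were Tnf and Nfkbia, where it was the lowest, and Birc3.

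Leukocyte genes moved with these values. The mean log2(FPKM + 1) of 6 leukocyte genes (Ptprc, Coro1a, Laptm5, Cd53, Cd52 and Lcp1) was 4.06, 3.46 and 3.40 in control 1, 2 and 3. Bleomycin libraries 1, 2 and 3 had 4.69, 4.60 and 5.11, and nitrate libraries 1, 2 and 3 had 4.11, 3.59 and 2.70. In each group the library highest in this list was thus the one with the most highest values of the 10 genes, and the library lowest in it the one with the most lowest values. Summed, the 6 genes took 66.96 to 116 FPKM in control, 167 to 241 in bleomycin and 37.9 to 117 in nitrate, and Cd52 passed between bleomycin and control (1.73 ± 0.33, adjusted p = 0.0188). The 12 monocyte and macrophage genes summed to 443 to 668, 1045 to 1921 and 327 to 858 FPKM. All 12 were tested, and 2 were called higher under bleomycin, Lyz2 and Cd14. Cd163 went the other way, from 8.25 ± 1.80 FPKM in control to 4.04 ± 2.40 under bleomycin (-0.96 ± 0.38, adjusted p = 0.150). Of 12 neutrophil genes the 5 tested all rose with bleomycin. Sums over the list were 11.4 to 33.3, 457 to 3207 and 22.8 to 184 FPKM in control, bleomycin and nitrate. Those sums were mostly S100a8 and S100a9, which had 1389 and 1792 FPKM in bleomycin 1. Ly6g was at 0 in 7 of the 9 libraries, Elane in 5, and Mpo stayed at or below 0.143 FPKM. Camp, also untested, had 0.869 ± 0.366 FPKM in control and 0.433 ± 0.357 in bleomycin. Retnlg, Ngp and Ltf, untested as well, had higher means in bleomycin. Retnlg had 0.0334 ± 0.0579 FPKM in control and 1.87 ± 1.94 in bleomycin. Ngp went from 0 to 0.239 ± 0.0797 FPKM, and Ltf from 0.0222 ± 0.0385 to 0.164 ± 0.0679. The 20 immediate early genes, some of which tissue handling can induce, summed to 471 to 535, 698 to 1877 and 669 to 684 FPKM, with 7 higher under bleomycin. No gene of these 4 lists was at 0 in every library. The part of these cells, or of handling, in the values of the 10 genes was not tested.

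**Figure D3:**
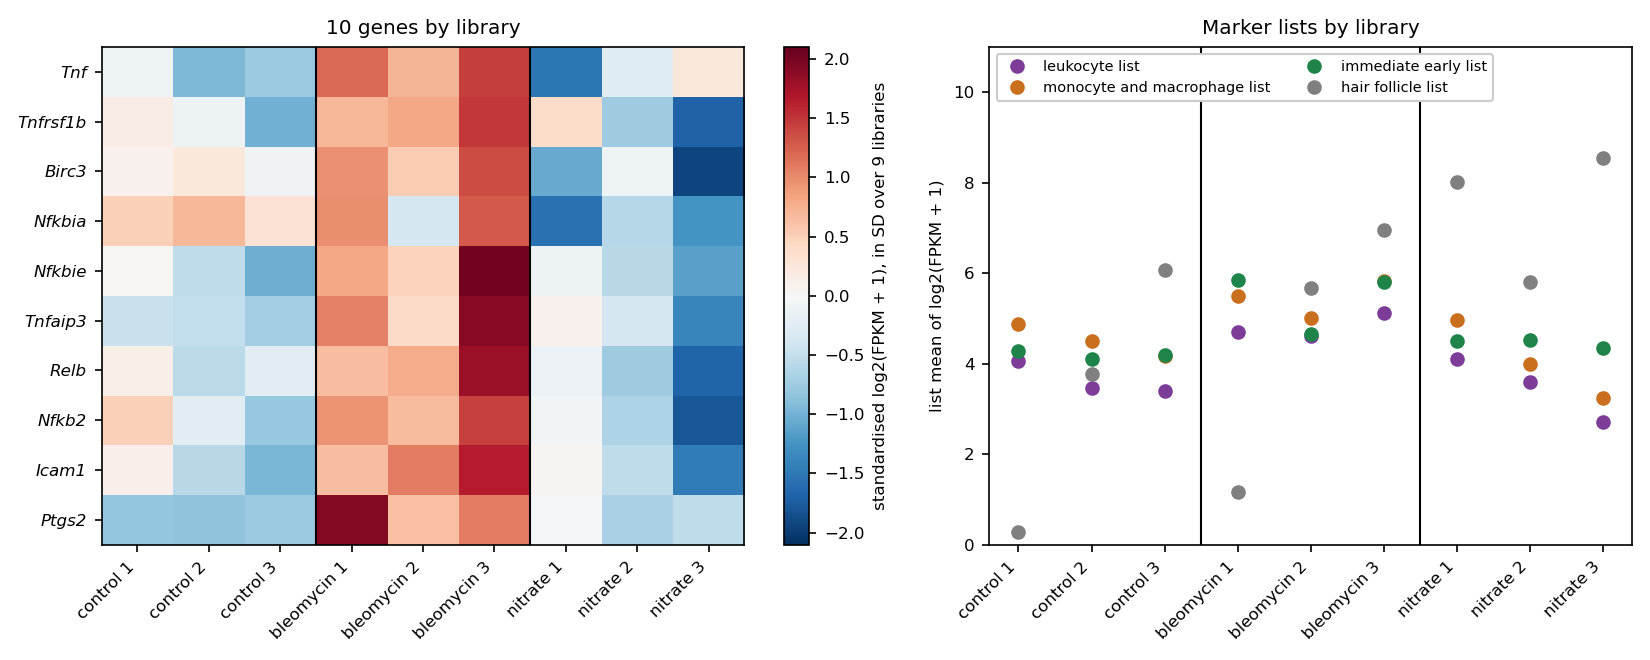
Left, log2(FPKM + 1) of the 10 genes in each library, standardised per gene over the 9 libraries (colour, in SD). Right, the mean log2(FPKM + 1) of 4 marker lists in the same libraries. Bleomycin 3 is the highest bleomycin library for 9 of the 10 genes and for the leukocyte list (5.11), and nitrate 3 is the lowest library of the leukocyte list (2.70).

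The other genes of the pathway gave the setting. Of 14 TNF family ligands and genes of TNF release 7 were tested. Ltb, the gene of lymphotoxin beta, rose with bleomycin (from 0.746 ± 0.107 to 4.05 ± 0.811 FPKM, 1.52 ± 0.16, adjusted p = 0.00387), as did Tnfsf9 (0.88 ± 0.18, adjusted p = 0.0260). Tnfsf9 reached 1 FPKM in 4 libraries, those of bleomycin and nitrate 3, so it met the filter only through the bleomycin group. Tnfsf10, the gene of TRAIL, had -0.59 ± 0.25 (adjusted p = 0.173). Of 11 receptors 9 were tested and 0 passed between bleomycin and control by limma (3 higher at an unadjusted p under 0.05), among them Cd40 (0.61 ± 0.18, adjusted p = 0.0699), which reached 1 FPKM in bleomycin alone, and Tnfrsf12a, the receptor of TWEAK (1.01 ± 0.27, adjusted p = 0.0567). All 22 receptor adaptors, kinases and ubiquitin ligase genes were tested and 0 passed between bleomycin and control by limma (7 at an unadjusted p under 0.05, 5 of them higher), with a median log2 difference of 0.08. The 4 with the smallest p were Casp8 (0.54 ± 0.15, adjusted p = 0.0577), Tab1 (-0.42 ± 0.11, adjusted p = 0.0577), Traf5 (-0.44 ± 0.12, adjusted p = 0.0593) and Map3k14. Map3k14, the kinase that starts the non-canonical branch, had 0.49 ± 0.14 (adjusted p = 0.0720).

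The remaining NF-kappa-B subunit genes were all tested. Rela, the main activating subunit, and Rel, a subunit of lymphocytes and myeloid cells, rose with bleomycin (0.41 ± 0.10, adjusted p = 0.0474, and 0.86 ± 0.17, adjusted p = 0.0216), and Nfkb1 did not pass (0.46 ± 0.12, adjusted p = 0.0524). Among 18 other inhibitors and feedback genes 16 were tested, and 5 rose with bleomycin. They were Nfkbiz (1.97 ± 0.33, adjusted p = 0.0130), Nfkbid (1.10 ± 0.19, adjusted p = 0.0135) and Bcl3 (1.74 ± 0.31, adjusted p = 0.0153), which encode nuclear I-kappa-B proteins, N4bp1 (0.53 ± 0.12, adjusted p = 0.0301) and Zc3h12a, an RNase that degrades inflammatory mRNAs (2.03 ± 0.52, adjusted p = 0.0487). The median of the 16 was 0.19. Bcl3 went from 5.69 ± 2.22 to 20.6 ± 2.44 FPKM under bleomycin and stood at 7.81 ± 3.03 with nitrate (-1.35 ± 0.31 against bleomycin, adjusted p = 0.121).

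Of 27 further textbook targets 24 were tested, and 11 rose with bleomycin (median 1.17). Il1b, the gene of the inflammatory cytokine interleukin-1 beta, had the smallest p and went from 0.905 ± 0.406 to 28.1 ± 10.02 FPKM (3.89 ± 0.36, adjusted p = 0.00253), and it had 2.34 ± 1.40 with nitrate. Among the others Ier3, a stress response gene, rose by 1.96 ± 0.32 (adjusted p = 0.0117) and was the member of this list still called higher with nitrate against control beside Ccl20 (1.52 ± 0.32, adjusted p = 0.0313, and 0.99 ± 0.22, adjusted p = 0.0353). Cxcl1, a neutrophil chemokine, rose by 2.46 ± 0.38 (adjusted p = 0.01), and Cxcl2, another, by 1.53 ± 0.24 (adjusted p = 0.0111). Cxcl1, Cxcl2 and Il6 reached 1 FPKM in bleomycin alone, so the filter fixed their direction, and the near-identical Bcl2a1a, Bcl2a1b and Bcl2a1d, also among the 11, can share reads. Bcl2a1a and Bcl2a1b each reached 1 FPKM in 4 libraries, those of bleomycin and 1 of nitrate, so they met the filter only through the bleomycin group. Between nitrate and bleomycin no gene of these lists passed, and the medians were -0.35 for ligands, -0.57 for receptors, -0.06 for adaptors, -0.38 for subunits, -0.25 for feedback genes and -1.18 for targets. Nitrate against control called Rhbdf2, which controls the shedding of TNF (0.72 ± 0.17, adjusted p = 0.0422), and Tnfrsf25 (0.71 ± 0.16, adjusted p = 0.0361) higher.

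**Figure D4:**
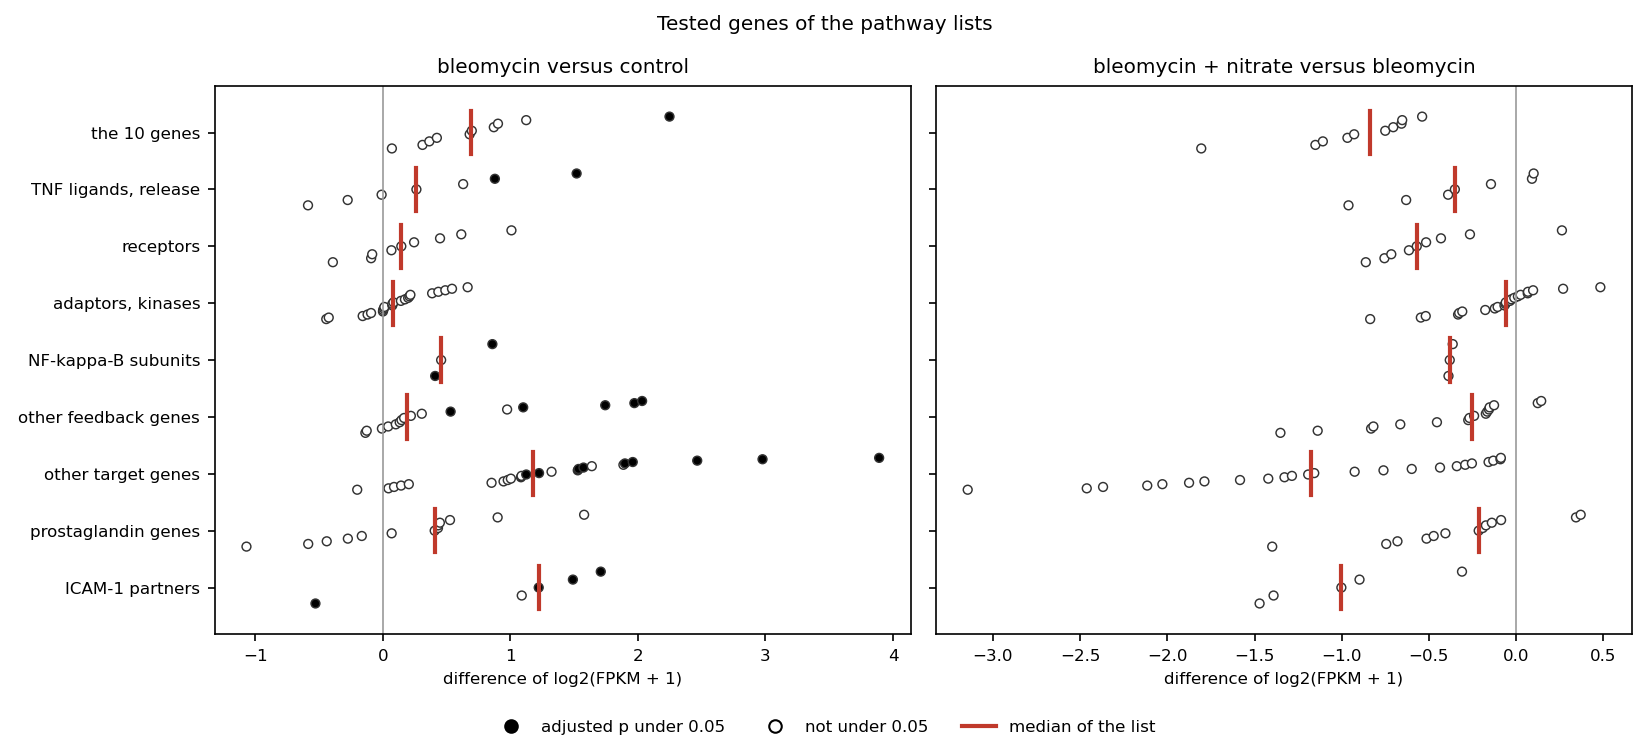
Each point is 1 tested gene, by list, with its difference of log2(FPKM + 1) on the horizontal axis for bleomycin against control and for nitrate against bleomycin; filled points passed and red lines are list medians. The target list has the most filled points (11), the adaptor list has none and a median of 0.08, and no point is filled on the right.

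The patterns of the 10 genes over the 9 libraries were compared after standardising each gene's log2(FPKM + 1). Nfkbie, Nfkb2, Tnfaip3, Relb and Icam1 were closest to the mean of the 10 (a root mean square difference of 0.241 to 0.298 SD), and Ptgs2 (0.579), Tnf (0.709) and Nfkbia (0.744) were farthest. Each of the 10 is itself part of that mean, which brings it closer, and other genes are not. Among all other tested genes the 8 nearest to that mean were Tyrobp, Ninj1, Vcam1, Rac2, Cd40, Spi1, Snx20 and Gpx1, at 0.149 to 0.202, where the median gene was at 1.34. Tyrobp, an adaptor of myeloid and natural killer cell receptors, had 35.95 ± 10.3, 90.8 ± 27.3 and 31.7 ± 10.9 FPKM in control, bleomycin and nitrate. Vcam1, the endothelial ligand of leukocyte integrin VLA-4, had 2.07 ± 0.220, 5.71 ± 2.05 and 1.495 ± 0.725. The 3 genes nearest to Ptgs2 alone were Arc, Sprr2g and Car9 (0.177 to 0.188), and those nearest to Tnf were Gm12854, Pdcd5-ps and S100a11 (0.263 to 0.290). These libraries share their groups and tissue content, so that nearness over 9 points is a description only.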

How the data were processed

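RNA of mouse skin was sequenced in 9 libraries, grouped by their titles. A column kit gave the RNA, and libraries were made with the SMARTer mRNA kit, per the labels' protocols. The genome build was mm10, per the submitters' processing notes. The aligner, counter and annotation are not given in the sources used here. Values are those the authors deposited, 1 table of FPKM per gene and library, with gene lengths. Reads per gene were recovered from FPKM and length, and 100% of values came out whole within 0.01 reads. The library size used by the authors was 0.916 to 1.09 times those reads, a scaling that is not explained in the labels. 

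The test was limma 3.58.1 (R 4.3.3) on log2(FPKM + 1) for the 14645 genes that reached 1 FPKM in 3 or more of the 9 libraries. All groups entered 1 unpaired fit, with eBayes using trend and robust options, two-sided p-values and Benjamini-Hochberg adjustment over all of them. Voom is limma's test for counts, run on the recovered reads. A symbol given to several genes, which held for 102 symbols, was kept for the gene with the highest mean. The test was tried on simulated data. The settings varied were the pseudocount (0.1 or 0.5), the filter (none, or a mean FPKM of 5), the scaling (median of ratios, or quantile normalization), a fit of only the groups compared, a block for the replicate number, weights per sample (arrayWeights), voom, a hair follicle covariate, leaving out control 1 and bleomycin 1 together, and leaving out each library. Named beside the 10 genes were up to 4 genes per list by the smallest p between bleomycin and control, and the genes nearest in pattern by a fixed number. Genes named outside this rule (Birc2, Ptgs1, Zc3h12a, Ccl20, Il6, the Bcl2a1 genes, other markers of the lists) were chosen after their values were seen. The 10 genes, the 20 lists and the alternatives were chosen with earlier results of these data known. Near-identical genes, and genes that overlap on the other strand, can share reads. Icam1 shares 511 bases with Gm47079, which had at most 0.0302 FPKM, and Nfkb2 shares 4 with Psd. Promoters came from RefSeq. Plots used Python 3.11.15 and matplotlib 3.10.9.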

Additional observations from a re-analysis of the deposited data

How the results depend on the processing

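Of the values of the 10 genes under the alternatives, 566 kept their direction and their side of the threshold, 16 newly passed, 1 no longer passed and 24 changed sign, none of which had passed. Bleomycin against control called 1234 genes, and 676 with no filter, 747 at a mean FPKM of at least 5, 1947 with sample weights and 97 without control 1 and bleomycin 1 together. Of the 10 genes 1 was called, and 0 at a mean FPKM of at least 5, where Ptgs2 was not tested, 4 with only the groups compared, 4 with sample weights and 0 without control 1 and bleomycin 1 together. The count over all genes with only the groups compared is not given here, so those 4 have no background. Nitrate against bleomycin called 0 genes. Nitrate against control called 1249 genes, and 294 with no filter, 357 with only the groups compared, 2085 with sample weights, 7 without control 1 and bleomycin 1 together and 9 with the hair follicle covariate. Of the 10 genes 0 were called there, and 1 each with quantile normalization, sample weights and voom. The counts over all genes with quantile normalization and with voom are not given here, so those calls have no background.

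Leaving out 1 library gave 295 to 1544 genes and 1 to 3 of the 10 for bleomycin against control (567, 295 and 566 genes without control 1, 2 and 3, and 501, 655 and 489 without bleomycin 1, 2 and 3). It gave 0 to 34 genes and 0 to 0 of the 10 for nitrate against bleomycin (2 without bleomycin 1, 11 without bleomycin 2 and 34 without nitrate 1). It gave 41 to 2880 genes and 0 to 2 of the 10 for nitrate against control (43, 41 and 685 without control 1, 2 and 3, 691 without bleomycin 3, and 472, 2880 and 169 without nitrate 1, 2 and 3). Without bleomycin 1, 2 or 3 Tnf fell under the filter and was not tested.

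Signs changed for bleomycin against control in Nfkbia (-0.022 without control 1 and bleomycin 1 together, -0.11 to 0.34 leaving out 1 library). For nitrate against control they changed in Tnf (-0.038 at a pseudocount of 0.1, -0.072 with quantile normalization, -0.11 with sample weights, -0.12 with voom, -0.11 to 0.24 leaving out 1 library), Tnfaip3 (-0.00350 with voom, -0.20 to 0.29 leaving out 1 library), Nfkbie (0.049 with sample weights, 0.089 without control 1 and bleomycin 1 together, -0.20 to 0.089 leaving out 1 library), Icam1 (0.048 with sample weights, 0.055 without control 1 and bleomycin 1 together, -0.22 to 0.10 leaving out 1 library) and Tnfrsf1b (0.036 with sample weights, -0.61 to 0.10 leaving out 1 library). The cause of these sign changes was not tested.

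The groups share replicate numbers, and the labels do not say what a number marks. The deviations of same-numbered libraries from their group means correlated at -0.391 to 0.517 over genes, and those of libraries with different numbers at -0.568 to 0.577. The pairs numbered 3 were all positive (0.344 to 0.443), while bleomycin 1 correlated best with nitrate 2 (0.577). Not every same-numbered pair was over 0.1. Since the labels state no method of pairing, the libraries were not treated as paired, and the replicate number was tried as a block. With the replicate block 1039 genes were called for bleomycin against control, 10 for nitrate against bleomycin and 1067 for nitrate against control, and 1, 0 and 0 of the 10 genes. At these depths Tnf rested on 3 to 44 reads a library.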

Other observations

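Marker lists of other tissue parts, tested in the same fits, are given as counts of called genes. All 9 stressed keratinocyte genes rose with bleomycin (median log2 difference 5.51), among them Stfa3 and Lce3c, and 4 were still called higher with nitrate against control. Of 8 mast cell genes 6 rose with bleomycin, and of 9 T cell genes 6 were tested and 4 rose, while Cd3d, Cd3e and Cd8a stayed under the filter. Of 9 endothelial genes 3 fell with bleomycin and 5 were lower with nitrate against control. None of 10 skeletal muscle, 9 fat cell and 24 hair follicle genes passed limma's test between bleomycin and control (3, 2 and 0 at an unadjusted p under 0.05), and with nitrate against control 3 muscle and 5 fat cell genes were lower. Of the 9 skin markers 3 rose and 3 fell with bleomycin, the latter the collagen genes Col1a1, Col1a2 and Col3a1.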
